A study of Mus musculus with 6 samples.

Results

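Elastic fibres give stretch and recoil to connective tissue, and 8 genes of these fibres were followed here: Eln, Fbn1, Fbln1, Fbln2, Fbln5, Mfap4, Emilin1 and Ltbp4. They were taken by gene name from a deposited table of 20015 genes, and all 8 were present and passed the filter on low counts. They were measured by RNA sequencing of quadriceps, the knee extensor muscle, in 6 libraries. The injured group is 3 libraries (A, B and C) labelled as quadriceps with an injured anterior cruciate ligament (ACL), and the non-injured group is 3 libraries (A, B and C) labelled as ACL non-injured quadriceps. The labels used here name no strain, genotype, age or time after injury. Separate animals behind the libraries are not named either, and the p-values therefore reflect library-to-library spread, possibly only technical. The organism label is mouse, while the series text speaks of human tissue taken at surgery. Every row is a mouse gene model, and for 96.6% of rows both ends coincide with the GENCODE M21 gene of that name (within 1 base), so positions are on the mouse build mm10.

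An elastic fibre has a core of cross-linked elastin laid down on a scaffold of microfibrils, which are built from fibrillin. Fibulins, EMILIN-1, MFAP4 and the latent TGF-beta binding protein LTBP4 sit on or between these components and help to bring them together, and lysyl oxidases cross-link the elastin. In skeletal muscle such fibres run in the connective tissue sheaths and in the walls of blood vessels. Fibrillin and the latent TGF-beta binding proteins also hold growth factors of the TGF-beta family in the matrix.

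Library totals ran from 6.45 to 7.50 M counts in injured and from 7.23 to 8.75 M counts in non-injured quadriceps. Levels are in CPM, counts scaled to library size with TMM factors. Errors of means are SDs (n = 3 in each group), and adjusted p-values are from edgeR's quasi-likelihood test over 16095 genes with Benjamini-Hochberg adjustment, with 0.05 as the threshold. Muscle fibre transcripts led every library: the 12 muscle fibre markers, among them Ttn, Myh4, Acta1 and Ckm, summed to between 193263 and 201196 CPM in injured and between 209753 and 216432 CPM in non-injured libraries. Most of this sum was Ttn. Without it the groups overlapped, with 60370 to 67940 CPM in injured and 63600 to 71412 CPM in non-injured libraries. The name of the table calls the RNA myonuclear, while the protocol describes total RNA, and genes of other cells of muscle were measured in all 6 libraries, such as Pdgfra of fibroblast-like progenitors at 30.3 to 31.3 CPM in injured and 19.1 to 27.6 CPM in non-injured libraries, and Cdh5 of endothelium at 23.2 to 28.2 CPM in injured and 22.2 to 27.0 CPM in non-injured libraries. In such bulk RNA, a change in the number of cells of a type and a change in RNA per cell cannot be told apart.

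Injured quadriceps held more fibrillin-1 mRNA, and most of the other elastic fibre genes leaned the same way without passing the test. Of the 8 genes, 1 rose (Fbn1, 2.22-fold) and 0 fell, against 0.715% of all tested genes called higher and 0.0311% called lower. At an unadjusted p under 0.05 there were 3 (Fbn1, Fbln2 and Emilin1), all with a positive sign, and 0 fell by DESeq2 or limma-voom either. The sign was positive for 7 genes and negative for 1, Ltbp4. The median log2 fold change of the 8 was 0.60, while the median of all tested genes was 0.00. That is not the like comparison for Fbln1, Fbln5, Mfap4 and Emilin1, which had means under 50 counts. All tested genes under that mean had a median of 0.22, so most of them had a positive sign as well. In 5 of the 8 (Fbn1, Fbln2, Fbln5, Mfap4 and Emilin1) every injured library had a higher CPM than every non-injured library, which held for 11.9% of all tested genes. With the letter as a replicate block, 2 of the 8 rose, Fbn1 and Fbln2, in a fit that called 3.21% of all genes higher.

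**Figure D1:**
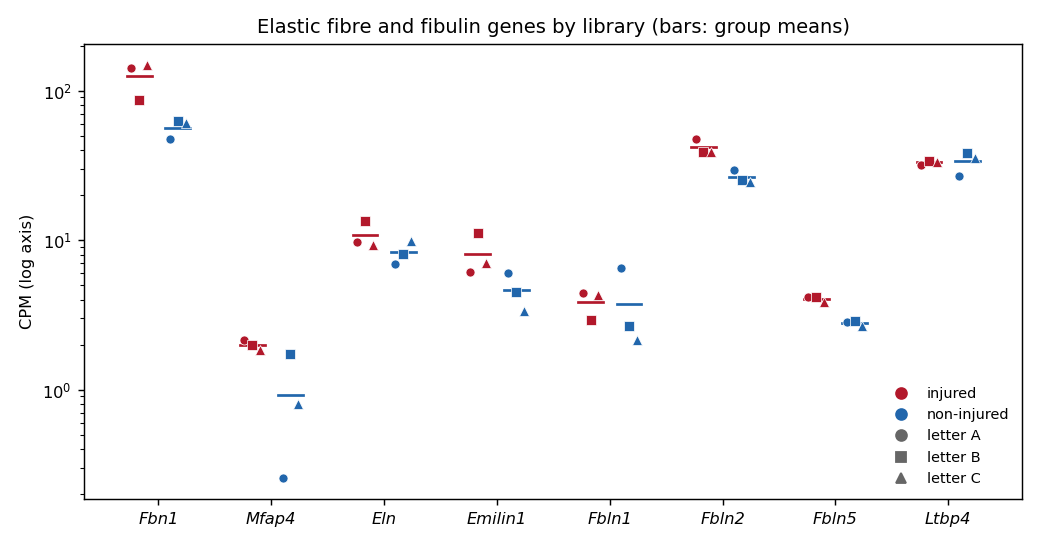
CPM of the 8 genes in each library on a log axis, with injured libraries in red on the left and non-injured libraries in blue on the right of each gene, the letter as the marker shape and the group mean as a bar. The groups are apart for Fbn1, Mfap4, Emilin1, Fbln2 and Fbln5, and overlap for Eln, Fbln1 and Ltbp4.

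Fbn1 encodes fibrillin-1, the main building block of microfibrils, and lies on chromosome 2 (125300594 to 125507994, minus strand), with an exon model of 12.13 kb. Its level was 141, 86 and 149 CPM in injured libraries A, B and C, and 47.3, 62.1 and 60.2 CPM in non-injured libraries A, B and C. All injured libraries lay above all non-injured ones, with injured B closest to them and injured A and C well apart. The means were 125 ± 34.3 CPM in injured and 56.6 ± 8.05 CPM in non-injured libraries, and Fbn1 rose with a log2 fold change of 1.15 ± 0.20 (SE, 95% interval 0.72 to 1.58, adjusted p = 0.0239). Summed over libraries, these levels rest on 2531 injured and 1362 non-injured counts. Fbn1 was the only gene of the 8 with values that were not whole, in every library, so part of its count was estimated. Within the letters, the log2 ratio of injured to non-injured was 1.58 for A, 0.47 for B and 1.30 for C, so the B pair differed least. The letter block gave 1.12 ± 0.16 (SE, adjusted p = 0.000875).

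The Fbn1 call depended on single libraries more than its size did. Without injured C the adjusted p was 0.102, without non-injured B it was 0.0634 and without non-injured C it was 0.139, while the log2 fold change stayed between 0.99 and 1.36 over the 6 fits that leave out 1 library. The exons of Fbn1 share 2442 bases with Gm9913, a gene model on the opposite strand, and the strand setting of the counting is not given in the sources used here. Gm9913 held 34 injured and 26 non-injured counts in all, and with these added to Fbn1 the log2 fold change was 1.14 (adjusted p = 0.0257). This cannot show how many opposite-strand reads were already counted for Fbn1.

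Elastin itself did not pass the test. Eln (chromosome 5, 134702593 to 134747324, minus strand), which encodes the core protein, had 9.65, 13.4 and 9.26 CPM in injured libraries A, B and C, and 6.89, 8.04 and 9.91 CPM in non-injured libraries A, B and C. Non-injured C lay above injured A and C, so the groups overlapped. The means were 10.8 ± 2.32 CPM in injured and 8.28 ± 1.52 CPM in non-injured libraries, and the log2 fold change was 0.38 ± 0.24 (SE) with an adjusted p of 0.479. Its 95% interval ran from -0.13 to 0.90, which holds 0 and overlaps the interval of Fbn1. Each Eln count was matched by 14.7, 6.4 and 16.1 Fbn1 counts in injured libraries A, B and C, and by 6.87, 7.73 and 6.08 in non-injured libraries A, B and C. Injured A and C were high and injured B lay among the non-injured libraries, and the log2 ratio did not differ between the groups beyond their spread (difference 0.74, exact two-sided permutation p = 0.30, where 3 against 3 libraries cannot go below 0.10).

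Mfap4 and Emilin1, which encode glycoproteins of the fibre surface, were higher in every injured library but missed the threshold. EMILIN-1 is found where elastin meets the microfibrils and binds fibulins. Emilin1 (chromosome 5, 30913402 to 30921278, plus strand) had 6.12, 11.2 and 6.98 CPM in injured libraries A, B and C, and 5.99, 4.48 and 3.35 CPM in non-injured libraries A, B and C. Injured A and non-injured A were almost level and injured B stood highest. The log2 fold change was 0.81 ± 0.32 (SE, 95% interval 0.13 to 1.49), with an unadjusted p of 0.0238 and an adjusted p of 0.25. In the letter pairs its log2 ratio was 0.03 for A, 1.32 for B and 1.06 for C, an order unlike that of Fbn1, where B was lowest.

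MFAP4 is a microfibril-associated glycoprotein that binds elastin and fibrillin. Mfap4 (chromosome 11, 61485431 to 61488901, plus strand) was the least counted of the 8, with 14, 13 and 13 counts in injured libraries A, B and C, and 2, 15 and 6 counts in non-injured libraries A, B and C. In CPM the injured libraries held 2.14, 1.99 and 1.85, and the non-injured libraries 0.255, 1.72 and 0.803. The injured libraries were alike, and the non-injured ones ran from far below them (A) to just below them (B). Its log2 fold change of 1.07 ± 0.60 (SE, adjusted p = 0.421) had a 95% interval from -0.22 to 2.36 and moved to 0.61 without non-injured A and to 1.87 without non-injured B. In all, 89 bases of its exons overlap Mapk7 on the opposite strand, whose log2 fold change was 1.12 ± 0.28 (SE, adjusted p = 0.0836), and reads from the shared bases cannot be assigned.

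The fibulins are secreted glycoproteins that link elastin, fibrillin and basement membrane proteins. Fbln2 was the most abundant of the 3 measured here and the closest to the threshold. Fbln2 (chromosome 6, 91212455 to 91272541, plus strand) had 47.6, 39 and 38.6 CPM in injured libraries A, B and C, and 29.2, 25.4 and 24.4 CPM in non-injured libraries A, B and C. The groups were well apart, and the A library was the highest in each. The means were 41.7 ± 5.11 CPM in injured and 26.3 ± 2.56 CPM in non-injured libraries, a log2 fold change of 0.66 ± 0.15 (SE, 95% interval 0.33 to 1.0, adjusted p = 0.0681). The letter pairs gave 0.71, 0.62 and 0.66, so the difference hardly varied between letters.

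Whether Fbln2 is called depends on the fit. It passed with the letter block (adjusted p = 0.00644), with DESeq2 (adjusted p = 0.0408), with upper quartile scaling (adjusted p = 0.0448) and among genes with a mean of at least 50 counts (adjusted p = 0.0469). In the last 3 of these fits 1.57%, 0.951% and 0.85% of all genes were called higher. It missed the threshold in the main edgeR fit (TMM scaling, no block, adjusted p = 0.0681) and by limma-voom (adjusted p = 0.0876). It also missed it by edgeR with RLE scaling (adjusted p = 0.073), with no filter (adjusted p = 0.101) and without both letter A libraries (adjusted p = 0.0545). The same held whichever library was left out, with adjusted p-values up to 0.299. Its log2 fold change stayed between 0.54 and 0.73 over all alternatives.

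**Figure D2:**
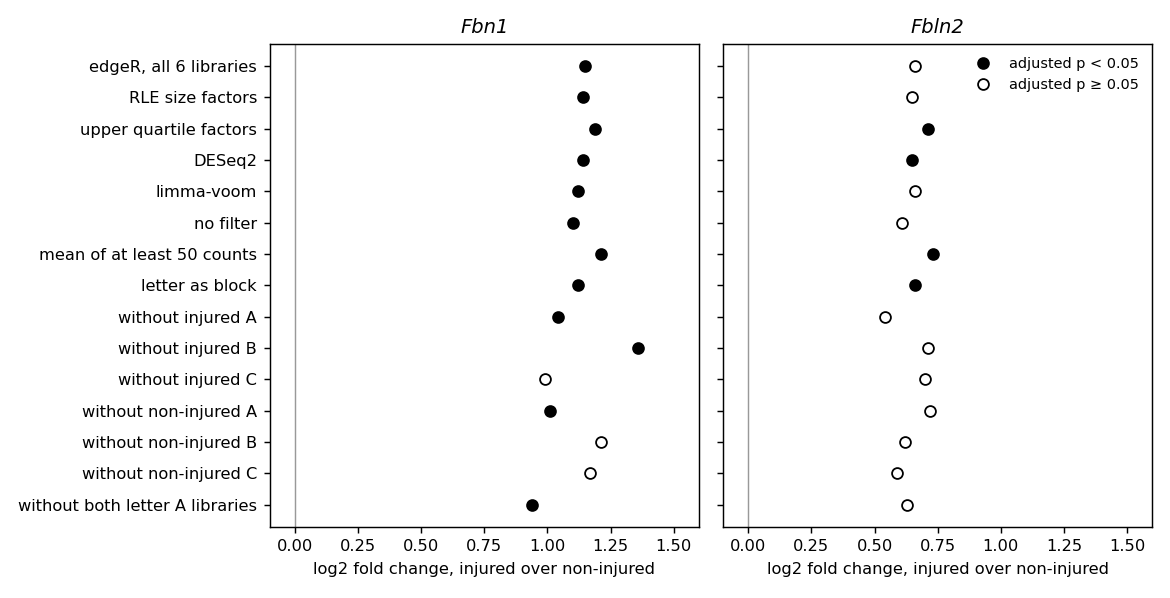
Log2 fold change (injured over non-injured) of Fbn1 and Fbln2 under each fit, with filled points for an adjusted p under 0.05 and open points otherwise. Both genes stay to the right of 0 in every fit shown, Fbn1 between 0.94 and 1.36 and Fbln2 between 0.54 and 0.73, while their calls come and go.

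Fbln5, which encodes the fibulin that binds elastin and integrins and is needed for elastic fibre assembly in mice, showed a small and very even difference on few counts. Fbln5 (chromosome 12, 101746565 to 101819056, minus strand) had 27 counts in each of injured A, B and C, and 22, 25 and 20 counts in non-injured A, B and C. That made 4.13, 4.13 and 3.84 CPM in the injured and 2.81, 2.87 and 2.68 CPM in the non-injured libraries. The groups did not overlap, and libraries of a group were nearly equal. The SD between libraries was 0.165 CPM in injured and 0.0981 CPM in non-injured libraries, below the 0.777 and 0.59 CPM that counting error alone gives at this depth. The log2 fold change was 0.53 ± 0.33 (SE, 95% interval -0.19 to 1.25, adjusted p = 0.48).

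Fbln1, the fibulin of basement membranes and elastic fibres, differed more between letters than between groups. Fbln1 (chromosome 15, 85205949 to 85286536, plus strand) had 4.44, 2.9 and 4.27 CPM in injured libraries A, B and C, and 6.5, 2.64 and 2.14 CPM in non-injured libraries A, B and C. Non-injured A was the highest of all 6 libraries and non-injured C the lowest. Its log2 fold change of 0.04 ± 0.43 (SE, adjusted p = 0.974) had an interval from -0.89 to 0.98, and the letter pairs ran from -0.55 for A through 0.14 for B to 1.0 for C. Without non-injured A it was 0.67 (adjusted p = 0.488). Genes with few counts leaned towards injured as a whole: the 7036 tested genes with a mean under 50 counts, which include Fbln1, Fbln5, Mfap4 and Emilin1, had a median log2 fold change of 0.22, against -0.03 for the 5372 genes between 50 and 200 counts and -0.11 for the 3687 above.

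Ltbp4 was the gene of the 8 with the difference nearest to 0. LTBP4 anchors latent TGF-beta in the matrix and helps fibulin-5 and elastin to assemble. Ltbp4 (chromosome 7, 27305136 to 27337693, minus strand) had 32, 33.9 and 33.3 CPM in injured libraries A, B and C, and 26.8, 38.3 and 35.5 CPM in non-injured libraries A, B and C. The injured libraries all fell inside the range of the non-injured ones. The log2 fold change was -0.02 ± 0.16 (SE, adjusted p = 0.968), and its 95% interval from -0.37 to 0.33 lies below the whole interval of Fbn1.

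**Figure D3:**
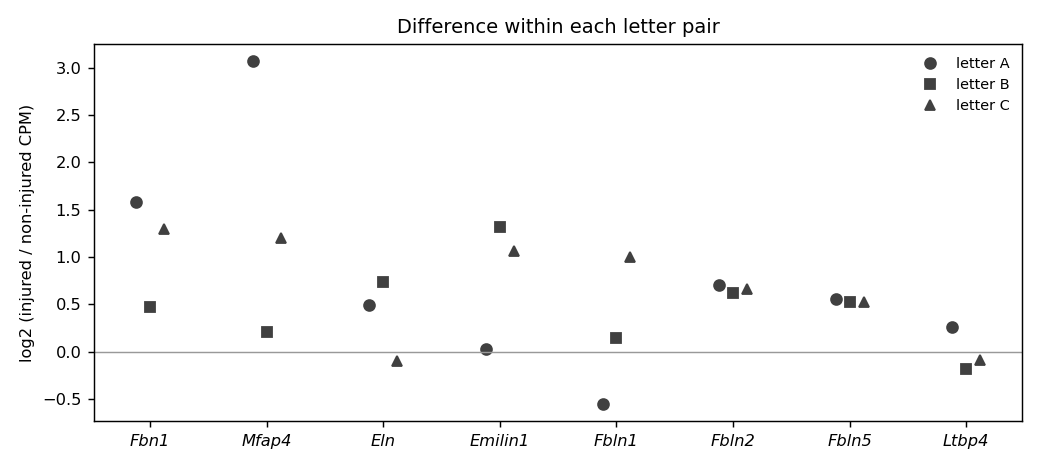
Log2 ratio of injured to non-injured CPM within letters A, B and C for each of the 8 genes. Fbln2 (0.62 to 0.71) and Fbln5 (0.52 to 0.56) are nearly equal in all letters, Fbn1 ranges from 0.47 to 1.58, and Eln, Fbln1 and Ltbp4 have letters on both sides of 0.

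The genes were also set against each other within libraries, since a ratio of 2 genes in a library does not depend on scaling. Fbn1 and Fbln2 were each compared with the other genes, 13 ratios in all, by exact two-sided permutation tests on log2 ratios. Fbn1 and Fbln2 had the smallest p-values among the followed genes in these same libraries. The ratios therefore partly restate their fold changes and are no independent test of them. The ratio of Fbn1 to Ltbp4 was 4.42, 2.54 and 4.47 in injured libraries A, B and C, and 1.77, 1.62 and 1.7 in non-injured libraries A, B and C. That of Fbln2 to Ltbp4 was 1.49, 1.15 and 1.16 in injured libraries and 1.09, 0.662 and 0.687 in non-injured libraries. These and the ratio of Fbn1 to Fbln1 were higher in every injured library, each with the smallest p that 3 against 3 libraries allow (exact permutation p = 0.10, adjusted over the 13 ratios 0.43). The other 10 ratios overlapped between the groups. The denominators of the separated ratios, Ltbp4 and Fbln1, had log2 fold changes of -0.02 and 0.04. Their separation thus adds little to the fold changes of Fbn1 and Fbln2. The ratio of Fbn1 to Fbln2 was 2.97, 2.21 and 3.86 in injured libraries and 1.62, 2.45 and 2.47 in non-injured libraries, so a larger change of Fbn1 than of Fbln2 did not stand out from the spread (log2 difference 0.46, exact permutation p = 0.30).

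Together the 8 genes took 248, 193 and 247 CPM in injured libraries A, B and C, and 126, 146 and 139 CPM in non-injured libraries A, B and C. Fbn1 made up 57.1%, 44.7% and 60.3% of this sum in the injured libraries and 37.6%, 42.7% and 43.4% in the non-injured ones. Without Fbn1 the sum was 106, 107 and 98.1 CPM in injured libraries and 78.4, 83.5 and 78.7 CPM in non-injured libraries. The groups were thus apart with and without Fbn1, by less without it.

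Per length of the exon model, 3 genes stood above the rest. In injured libraries the levels were 10.3 ± 2.83 CPM per kilobase for Fbn1, 6.55 ± 0.802 for Fbln2 and 5.12 ± 0.152 for Ltbp4. In non-injured libraries the level per kilobase was 4.66 ± 0.664 for Fbn1, 4.13 ± 0.401 for Fbln2 and 5.19 ± 0.931 for Ltbp4. Fbn1 and Fbln2 overlapped within each group. Ltbp4 lay below both in every injured library, but its range overlapped that of Fbn1 in the non-injured libraries. The other 5 genes followed, between 0.584 ± 0.0239 (Fbln5) and 1.64 ± 0.545 (Emilin1) CPM per kilobase in injured libraries and between 0.403 ± 0.0142 (Fbln5) and 1.02 ± 0.188 (Eln) in non-injured libraries. In the non-injured libraries no neighbours among these 5 were apart. In the injured libraries Emilin1 overlapped Eln and Mfap4 overlapped Fbln1, while Eln lay above Mfap4 and Fbln1 above Fbln5. Exon models that include long untranslated or retained parts lower these values: the model of Eln has 8.10 kb for a longest coding length of 2.58 kb. Per kilobase of coding length, the injured level was 14.6 ± 3.98 CPM for Fbn1, 11.4 ± 1.39 for Fbln2, 6.62 ± 0.197 for Ltbp4 and 4.18 ± 0.898 for Eln. There the 3 genes still led, and Fbln5 moved up from the lowest place to place 5.

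**Figure D4:**
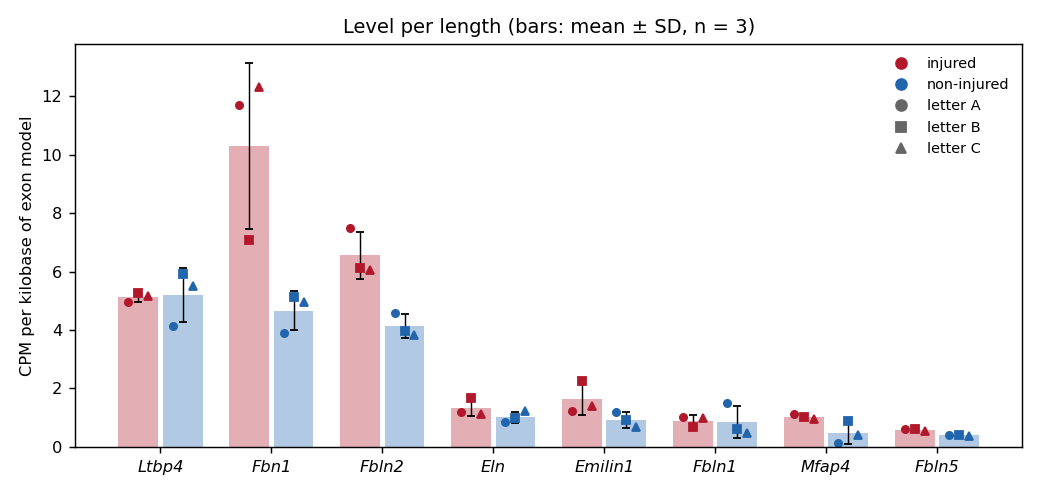
CPM per kilobase of exon model for the 8 genes, with injured in red on the left and non-injured in blue on the right, bars as means, error bars as SD (n = 3) and points as libraries. Ltbp4, Fbn1 and Fbln2 have means above 4 in both groups and the other 5 genes have means below 2.

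Other genes of the elastic fibre system gave calls in a few members and mostly small differences. The list held 24 genes of microfibrils, fibulins, EMILINs, latent TGF-beta binding proteins and ADAMTS-like proteins, of which 21 were tested. Of these 2 rose (Emilin2 and Ltbp2) and 0 fell, 18 had a positive sign, and the median log2 fold change was 0.32. Most of the 21 had a mean under 50 counts, and all tested genes under that mean had a median of 0.22, so the signs and median lie close to that lean. At an unadjusted p under 0.05 there were 3, a share near that of all tested genes, and 0 fell by DESeq2 or limma-voom. Emilin2, a relative of Emilin1, had 20.4, 12.5 and 18.1 CPM in injured libraries A, B and C, and 6.25, 6.2 and 5.49 CPM in non-injured libraries A, B and C. It rose 2.83-fold (adjusted p = 0.01), with injured B the lowest of its group as for Fbn1. Ltbp2, which binds fibrillin but not latent TGF-beta, had 11.8, 7.95 and 5.55 CPM in injured libraries and 0.638, 2.07 and 1.07 CPM in non-injured libraries. It rose 6.52-fold (adjusted p = 0.0153) at a mean of 33.1 counts per library. Leaving out non-injured C ended both calls, and leaving out injured C ended that of Emilin2 as well (adjusted p up to 0.108 for each gene). Of the other tested genes of the list, Adamts17 (log2 1.66, adjusted p = 0.298) lay highest and Mfap3 (log2 -0.38, adjusted p = 0.373) lowest. Adamts17 had a mean of only 8.5 counts per library and 0 CPM in non-injured C. The Ltbp4 relatives Ltbp1 (log2 0.11) and Ltbp3 (log2 0.09) were close to 0, as Ltbp4 was.

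The lysyl oxidases, which cross-link elastin and collagen, gave the most calls for the size of the list. Of 5 tested, 4 rose and 0 fell: Lox (4.15-fold, adjusted p = 0.00287), Loxl3 (3.63-fold, adjusted p = 0.0285), Loxl1 (2.03-fold, adjusted p = 0.0446) and Loxl2 (2.22-fold, adjusted p = 0.0459). Loxl1, which is needed for elastic fibre upkeep in mice, had 22.4, 20.5 and 23.6 CPM in injured libraries A, B and C, and 7.65, 13.1 and 11.9 CPM in non-injured libraries A, B and C. The groups were apart for all 4 genes. Lox kept the call whichever library was left out, Loxl1 lost it in all 6 such fits (adjusted p up to 0.18), and Loxl2 and Loxl3 kept it in 1 of 6 each, Loxl2 without non-injured B and Loxl3 without injured B.

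**Figure D5:**
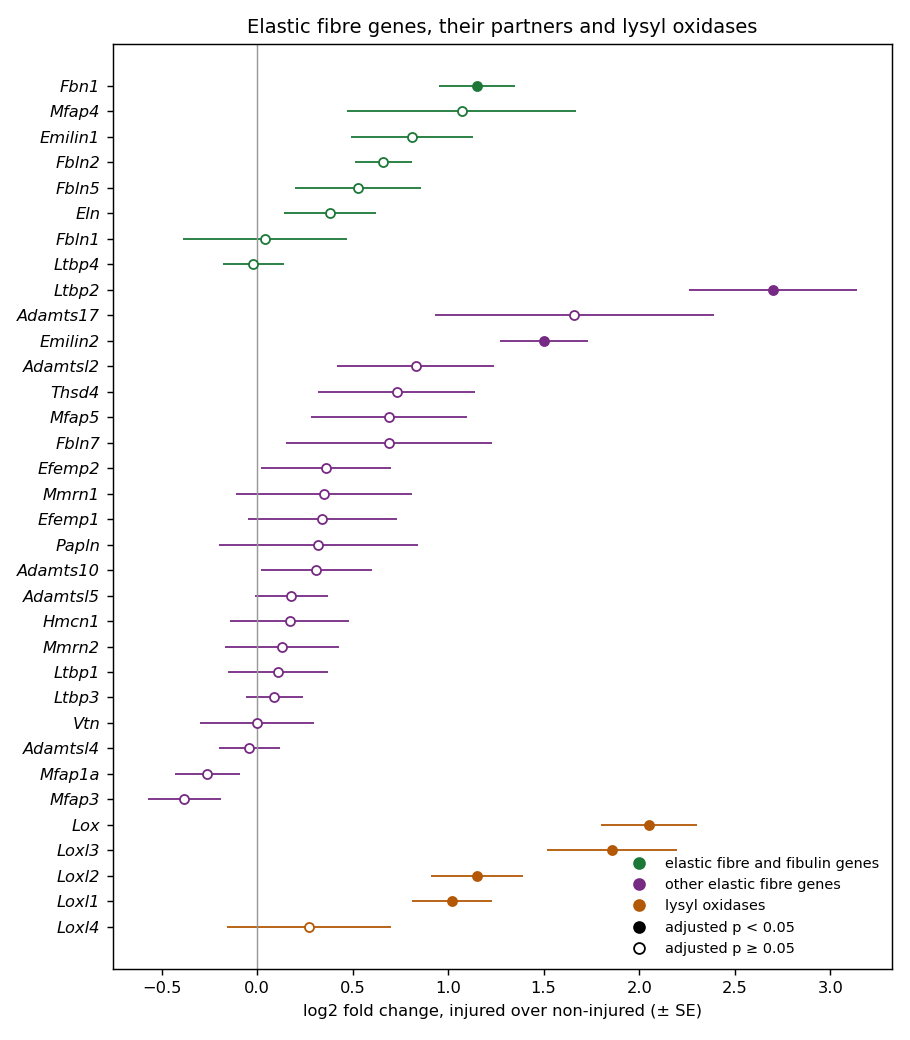
Log2 fold change (injured over non-injured) ± SE of the 8 genes (green), the other elastic fibre genes (purple) and the lysyl oxidases (orange), with filled points for an adjusted p under 0.05. Filled points are Fbn1, Ltbp2, Emilin2, Lox, Loxl3, Loxl2 and Loxl1; most open points lie between -0.4 and 1.

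Of 11 proteases that cleave elastin, 6 were tested, 1 rose and 0 fell. This was Ctss, the elastolytic cathepsin S of macrophages, with 13.6, 5.96 and 9.26 CPM in injured libraries A, B and C, and 1.28, 2.64 and 2.81 CPM in non-injured libraries A, B and C (4.26-fold, adjusted p = 0.0285). Leaving out injured A or C, or non-injured B or C, ended this call (adjusted p up to 0.108). With the letter block 2 rose, Ctss and Mmp14, a membrane-bound metalloproteinase (log2 1.22 ± 0.26 SE, adjusted p = 0.054 without the block and 0.0098 with it). Mmp7, Mmp12, Elane, Prtn3 and Ctsg had no row in the table used here, whose genes all reach 10 counts in some library.

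Receptors and growth factors that elastic fibres bind gave no calls in the main edgeR fit, which takes no block. Among 11 tested integrin and elastin receptor genes 0 changed, with 6 at an unadjusted p under 0.05. The smallest p-values were those of the integrin subunits Itga4 (log2 -0.56 ± 0.16 SE, adjusted p = 0.115) and Itgb1 (log2 0.50 ± 0.15 SE, adjusted p = 0.128), and with the letter block Itgb1 rose (adjusted p = 0.0118) and Itga4 fell (adjusted p = 0.0148). The block fit called 516 of all 16095 genes higher and 427 lower, against 115 and 5 without the block. Among 8 TGF-beta ligands, receptors and anchors 0 changed, with 4 at an unadjusted p under 0.05. Beside both lists, the unadjusted p-values of all tested genes were also under 0.05 down to at least rank 2326 of 16095. The smallest p-values were those of Lrrc32, an anchor of latent TGF-beta on cells (log2 1.14 ± 0.29 SE, adjusted p = 0.0886), and Tgfb1 (log2 1.08 ± 0.33 SE, adjusted p = 0.143). With the letter block Lrrc32 and Tgfbr2 rose (adjusted p = 0.0309 and 0.0475).

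Markers of cells that make or surround elastic fibres were summed beside these results. The 16 fibroblast and progenitor markers took 674 to 783 CPM in injured and 773 to 854 CPM in non-injured libraries, and 0 of 15 tested changed, while 12 had a positive sign (median log2 fold change 0.12). Their smallest p-values were those of Cxcl14 (log2 0.61, adjusted p = 0.137) and Pi16 (log2 0.61, adjusted p = 0.197), 3 had an unadjusted p under 0.05, and with the letter block Cxcl14 rose (adjusted p = 0.0226). The largest share of that sum came from Gsn, which other cells also make, at 339 to 424 CPM in injured and 447 to 532 CPM in non-injured libraries. Without Gsn the order turned, with 335 to 359 CPM in injured and 319 to 327 CPM in non-injured libraries. Of 11 smooth muscle and pericyte markers 0 changed, with 1 at an unadjusted p under 0.05, Cspg4 (log2 0.62, adjusted p = 0.18), followed by Abcc9 (log2 -0.27, adjusted p = 0.342). Myh11, the myosin of smooth muscle, had 14.4 to 20.6 CPM in injured and 15.6 to 20.7 CPM in non-injured libraries. The sum of this list, 2187 to 2594 CPM in injured and 1767 to 2416 CPM in non-injured libraries, was mostly Des, which muscle fibres make, and without it the sum was 345 to 384 CPM in injured and 371 to 393 CPM in non-injured libraries. Of 11 endothelial markers 0 changed, 1 had an unadjusted p under 0.05 (Egfl7, log2 0.53, adjusted p = 0.271, followed by Vwf, log2 0.64, adjusted p = 0.363), and the sum was 136 to 147 CPM in injured and 117 to 128 CPM in non-injured libraries.

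Of 4 tendon markers 0 passed, Thbs4 (log2 0.81, adjusted p = 0.059) and Scx (log2 0.90, adjusted p = 0.105) had an unadjusted p under 0.05, and both rose with the letter block (adjusted p = 0.00946 and 0.0455). The other tested ones, Comp (log2 0.92, adjusted p = 0.448) and Fmod (log2 -0.22, adjusted p = 0.694), overlapped between the groups. The 5 tendon markers in the table summed to 52.3 to 61.9 CPM in injured and 37.1 to 45.8 CPM in non-injured libraries, and the defining markers Tnmd and Mkx had no row. Without Thbs4 the groups overlapped, with 22.8 to 30.2 CPM in injured and 18.9 to 23.4 CPM in non-injured libraries. Macrophage markers gave the most calls of the marker lists: 6 of 13 tested rose and 0 fell, and the 15 in the table summed to 122 to 211 CPM in injured and 58.2 to 70.3 CPM in non-injured libraries. By p-value the first 4 were Lyz2 (3.81-fold, adjusted p = 0.00493), Itgam (6.42-fold, adjusted p = 0.00502), C1qb (3.21-fold, adjusted p = 0.01) and Ctss, which is also in the protease list. The other calls were Spi1, with the largest fold of the list (6.78-fold, adjusted p = 0.0403) at a mean of 10.3 counts per library, and Mrc1 (2.06-fold, adjusted p = 0.0443). With the letter block 9 rose, with Csf1r, Adgre1 and C1qa added (adjusted p = 0.0098, 0.0309 and 0.0496). Leaving out 1 library gave 1 to 5 calls: 3 without injured A, 5 without injured B, 2 without injured C, 4 without non-injured A, 3 without non-injured B and 1, Itgam, without non-injured C. Itgam was called in all 6 of these fits, Lyz2 in 5, C1qb in 4, Ctss in 2, Mrc1 in 1 and Spi1 in 0. Of 12 muscle fibre markers 0 changed, with 0 at an unadjusted p under 0.05, and Pvalb (log2 -0.39, adjusted p = 0.327) and Myh4 (log2 -0.31, adjusted p = 0.331) had the smallest p-values. No marker in the table was at 0 in all 6 libraries. The part of these cells in the Fbn1 result was not tested.

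The genes nearest to the mean profile of the 8 were found by the root mean square difference of centred log2 CPM over the 6 libraries, among 9055 other genes with a mean of at least 50 counts. They were Hdac7 (0.059), Sh3d19 (0.063) and Arhgdia (0.064). Hdac7 had 20.4, 20.8 and 21.2 CPM in injured libraries A, B and C, and 12.6, 13.7 and 12.3 CPM in non-injured libraries A, B and C. Among the 8 genes themselves Fbln5 (0.065) and Fbln2 (0.138) were nearest to their mean profile, and Mfap4 (0.579) and Fbln1 (0.544) farthest from it.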

How the data were processed

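Estimated counts for each gene in 6 quadriceps libraries were deposited by the authors as 1 table, where 72.24% to 74.54% of the values of a library are whole. Per the submitters' processing notes, STAR 2.7.8a, Partek and DESeq2 and the builds hg19 and mm10 were used, with no role or order named. Which tool counted reads, with what strand setting and annotation release, is not given in the sources used here.

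Counts were rounded, filtered with filterByExpr (16095 genes kept, 3920 dropped), scaled by TMM and tested with edgeR 4.0.16 in R 4.3.3 (quasi-likelihood F test, two-sided, Benjamini-Hochberg). The SE was derived from the size of the log2 fold change and F, and 95% intervals use the t quantile of the fit. limma 3.58.1 (voom), DESeq2 1.42.0, other scalings and filters, the letter block and left-out libraries were alternatives. The fit was tested on simulated data. Exon lengths are unions of GENCODE M21 exons.

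Deviations from the group means, compared across 16095 genes, correlated at 0.316, 0.208 and 0.113 between libraries of letters A, B and C, all over 0.1. Between libraries of unlike letters they correlated at -0.232 to 0.064, so the C pair stood out little. The 3 deviations of a group sum to 0 for each gene. Positive correlations of like letters therefore pull those of unlike letters below 0, and the latter are no independent baseline. The letters may pair the libraries, but the labels do not say what they mean. The main fit and its p-values take no pairing, and the letter block is given as an alternative.

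The 8 genes and the other lists were chosen with earlier results of these data known, and the lists get counts and medians only. Named beside the 8 were up to 4 genes past the threshold in each list, or else the 2 with the smallest p, and the 3 nearest profiles. Pdgfra, Cdh5, Myh11, Gsn, Des, Ltbp1, Ltbp3, Adamts17, Mfap3, Comp, Fmod, Spi1, Mrc1, the overlapping gene models, muscle fibre genes and further genes called with the block were named after their values were seen. Counting error is the square root of the count and covers counting only.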

Additional observations from a re-analysis of the deposited data

How the results depend on the processing

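Of the 8 genes, 2 were called higher (Fbn1 and Fbln2) with upper quartile scaling, DESeq2, a mean of at least 50 counts and the letter as replicate block, 0 to 1 when 1 library was left out, and 1 in the other fits; 0 were called lower in any fit. The count was 0 when either C library or non-injured B was missing. Among the fits with 1 library left out, these also called the fewest of all genes higher (20 to 46). The other elastic fibre genes gave 1 call by limma-voom, 1 where the mean count was at least 50, and 0 to 2 when 1 library was left out, with 0 lower throughout. The median log2 fold change of the 8 stayed between 0.51 and 0.65.

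The sign of 2 uncalled genes turned. Fbln1 ran from -0.26 to 0.67 when 1 library was left out, and Ltbp4 from -0.18 to 0.07, with 0.03 under upper quartile scaling and 0.05 at a mean of at least 50 counts. Both are near 0, and the cause was not tested. Eln, Fbn1, Fbln2, Fbln5, Mfap4 and Emilin1 kept a positive sign in every fit that included them. A mean of at least 50 counts leaves out Fbln1, Fbln5, Mfap4 and Emilin1.

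Levels per length moved for all 8 genes with coding length, chosen after seeing the data in place of a planned protein length, which was not run. Adding Gm9913 to Fbn1, the list sums without Gsn, Des, Thbs4 or Ttn and the list calls with 1 library left out were also chosen then. The ratios between the 8 genes were not among the planned results. Mfap4, Fbln5, Fbln1 and Emilin1 had means of 10.5 to 45.5 counts per library. Counting error alone exceeded the spread between libraries for Fbln5 in both groups, while for Emilin1 the spread was larger in both (2.69 against 1.09 CPM in injured and 1.33 against 0.754 CPM in non-injured libraries).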
